A study of Mus musculus with 8 samples.

Results

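The cell cycle and DNA replication genes examined here are 39 cyclins, replication factors and mitosis genes, named by symbol and matched to Ensembl identifiers in the count tables of 8 mouse kidneys. All 39 were among the 47643 genes listed in each table, and all 39 held enough counts to be tested, among 13829 tested genes in all. The tested kidneys, called cKO, gave 4 libraries of the genotype Six2-Cre;Cox10-fl/fl, and the comparison kidneys, called WT, gave 4 libraries of wild-type mice. In each genotype replicates 1, 3 and 4 were 3 months old and replicate 2 was 2.5 months old. Cox10 encodes an enzyme of heme A synthesis that cytochrome c oxidase, the last complex of the respiratory chain, depends on. Six2-Cre recombines in nephron progenitors, so the nephron epithelium derived from them carries the deletion, while collecting duct, vessels, stroma and blood cells have another origin and are present in the same extracts. Sex, a Cre-only control and the floxed exons are not stated in the labels. They number the libraries of a genotype without stating that each number is a separate animal, so the p-values measure the spread between these samples.

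A cell enters the division cycle when D-type and then E-type cyclins, with their kinases, inactivate the retinoblastoma proteins and release E2F transcription factors. E2F targets license replication origins, load the MCM helicase and supply nucleotides for S phase, and a later wave of genes, switched on through the MuvB, B-Myb and FoxM1 factors, drives G2 and mitosis. The adult kidney divides slowly, and its tubule cells are known to re-enter the cycle after injury.

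The deposited expected counts summed to 9454830 to 15838026 per library. Cox10 was 19.5, 10.9, 20.8 and 22.3 CPM (expected counts scaled to a common library size, with library totals adjusted by the TMM method) in cKO 1 to 4, against 24.6, 19.6, 19.2 and 20.4 CPM in WT 1 to 4. The groups overlapped (log2 fold change -0.19, 95% interval -0.72 to 0.34, edgeR adjusted p = 0.619, exact two-sided permutation p = 0.514 over 35 splits, of which 0.0286 is the smallest possible p), so the summed gene count does not check the deletion, and which exons are removed was not analysed here. Reads of the Y-linked genes Ddx3y, Uty, Kdm5d and Eif2s3y were found in cKO 3 and in WT 2, WT 3 and WT 4, and were at 0 in cKO 1, cKO 2, cKO 4 and WT 1. Genotype and sex were therefore unbalanced, and for each gene named in the results a call that did not hold with a sex term is given below. Kidney identity was clear in both genotypes, with the proximal tubule transporter Slc34a1 at a mean of 1515 CPM in cKO and 4140 CPM in WT, and the thick limb gene Umod at 1578 CPM in cKO and 2578 CPM in WT.

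Of the 39 genes, 26 were higher in cKO kidneys, 1 was lower and 12 did not pass the threshold (edgeR quasi-likelihood test, Benjamini-Hochberg adjusted p under 0.05 over all tested genes). Over all tested genes 9.57% were called higher and 7.14% lower. The median log2 fold change, cKO over WT, was 1.64 over the 39 genes and -0.01 over all tested genes, and 36 of the 39 values were positive. In 27 genes every cKO library lay above every WT library, a pattern held by 13.0% of all tested genes. In 1 gene, the cyclin D1 gene Ccnd1, every cKO library lay below every WT library, as in 9.57% of all tested genes. By phase, all 8 genes of G2 and mitotic entry, 7 of 9 chromosome and spindle genes and both mitotic exit genes were higher. Of the earlier phases, 2 of 6 G1 genes, 5 of 10 origin and fork genes and 2 of 4 nucleotide supply genes were higher. The phase medians were 0.71 for G1, 0.73 for origins and fork, 0.80 for nucleotide supply, 2.56 for G2 and mitotic entry, 2.04 for chromosomes and spindle and 2.37 for mitotic exit, all as log2 fold changes. In whole-kidney RNA, more cells of a type and more RNA per cell cannot be told apart, and neither can the cell type in which a transcript was made.

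**Figure D1:**
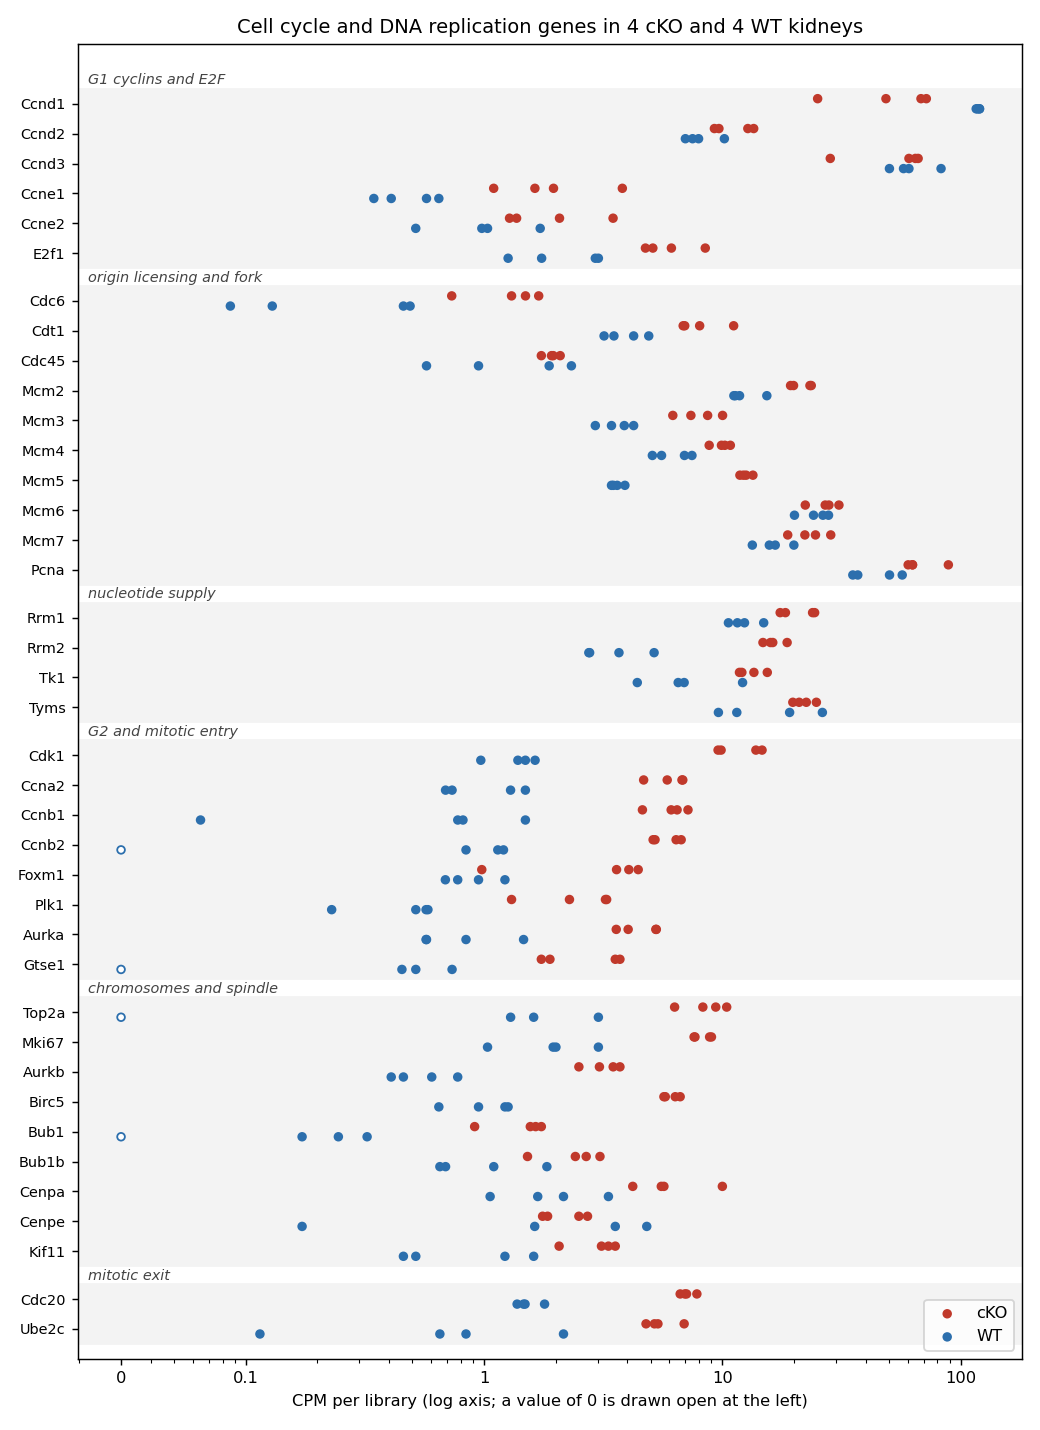
CPM on a log axis of each of the 39 genes in the 4 cKO libraries (red) and the 4 WT libraries (blue), grouped by phase of the cell cycle, with values of 0 drawn as open circles at the left. The cKO points lie to the right of all WT points in 27 genes, and in Ccnd1 they lie to the left.

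Among the G1 genes cyclin D1 was lower in cKO, and cyclin E1 and E2f1 were higher. Ccnd1, which encodes cyclin D1, the partner of the G1 kinases CDK4 and CDK6, had 71.8, 25.1, 68.2 and 48.6 CPM in cKO 1 to 4, against 118, 116, 120.1 and 120.0 CPM in WT 1 to 4. The WT libraries lay close together, and all 4 cKO libraries lay below them, with cKO 2 the lowest. Ccnd1 averaged 53.5 ± 21.5 CPM in cKO and 119 ± 1.87 CPM in WT (SD, n = 4 each), log2 fold change -1.15 ± 0.29 (SE; edgeR adjusted p = 0.0209). That call did not hold without cKO 4 (log2 fold change -1.10, edgeR adjusted p = 0.0723), without WT 4 (-1.13, adjusted p = 0.0505), with a sex term (-1.04, adjusted p = 0.0834) or with scaling to library totals (-0.97, adjusted p = 0.0519). Ccnd2, encoding cyclin D2, ran from 9.27 to 13.5 CPM in cKO and from 7.003 to 10.2 CPM in WT, and Ccnd3, encoding cyclin D3, from 28.4 to 66.4 CPM in cKO and from 50.3 to 82.8 CPM in WT. Neither passed the threshold, and the intervals of their log2 fold changes were -0.03 to 0.98 and -0.80 to 0.42. Levels per kilobase of exon used the joined length of all annotated exons of a gene, which can exceed the transcript made. Levels of different genes therefore compare only roughly. On that scale Ccnd1 made up 55.3% to 64.6% of the summed D-type cyclin level in cKO libraries and 70.9% to 78.9% in WT libraries. The make-up of the D-type cyclins thus differed without overlap. Ccnd2 supplied 5.27% to 10.7% of that sum in cKO and 2.26% to 3.36% in WT, and Ccnd3 29.3% to 39.4% in cKO and 17.7% to 26.8% in WT. Shares of a sum depend on each other, and a lower Ccnd1 by itself raises the shares of Ccnd2 and Ccnd3.

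Cyclin E, which with CDK2 carries a cell from G1 into S phase, is encoded by a pair of genes. Ccne1 had 1.10, 3.81, 1.64 and 1.96 CPM in cKO 1 to 4, against 0.345, 0.574, 0.408 and 0.647 CPM in WT 1 to 4. No cKO library fell within the WT range, and cKO 2 was the highest (log2 fold change 2.05 ± 0.48 SE, edgeR adjusted p = 0.0153). Ccne2 was 1.28 to 3.48 CPM in cKO and 0.517 to 1.72 CPM in WT, which overlapped, and its log2 fold change of 0.96 did not pass (interval -0.07 to 1.99). E2f1, the E2F family member that activates S phase genes, had 4.76, 5.11, 6.12 and 8.49 CPM in cKO 1 to 4, against 2.93, 1.26, 3.02 and 1.75 CPM in WT 1 to 4. Its groups did not overlap (log2 fold change 1.44 ± 0.35 SE, edgeR adjusted p = 0.0173). The E2f1 call did not hold without cKO 4 (log2 fold change 1.24, edgeR adjusted p = 0.0646) or without WT 4 (1.33, adjusted p = 0.0605).

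The origin licensing and fork genes had positive log2 fold changes in 10 of 10 cases, from 0.13 for Mcm6 to 2.19 for Cdc6, and 5 passed the threshold. Cdc6 and Cdt1 encode the loaders that place the MCM helicase on origins in G1. Cdc6 had 0.732 to 1.70 CPM in cKO and 0.0863 to 0.490 CPM in WT, resting on 71 counts in all cKO libraries together and 13 in all WT libraries together (log2 fold change 2.19, edgeR adjusted p = 0.0233). Cdt1 had 6.85 to 11.2 CPM in cKO and 3.19 to 4.91 CPM in WT (log2 fold change 1.06, edgeR adjusted p = 0.0215). Neither gene overlapped between genotypes. The Cdc6 call did not hold without cKO 3, cKO 4 or WT 4 (edgeR adjusted p 0.0578, 0.0793 and 0.0804), and the Cdt1 call did not hold without cKO 4 or WT 3 (adjusted p 0.0757 and 0.0649). Cdc45, encoding the factor that joins MCM to form the active helicase, lay between 1.74 and 2.09 CPM in cKO, within the WT span of 0.574 to 2.33 CPM (log2 fold change 0.40, interval -0.53 to 1.32).

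The 6 subunits of the MCM ring encircle and unwind DNA as a single complex, and their log2 fold changes ran from 0.13 to 1.80. Mcm5 had 12.3, 11.9, 12.6 and 13.4 CPM in cKO 1 to 4, against 3.62, 3.90, 3.43 and 3.49 CPM in WT 1 to 4. No value of either group came near the other group. Mcm5 averaged 12.5 ± 0.674 CPM in cKO and 3.61 ± 0.210 CPM in WT (SD, n = 4 each), and the log2 fold change was 1.80 ± 0.21 (SE, interval 1.33 to 2.26, edgeR adjusted p = 0.000407). Mcm6 had 27.0, 22.3, 28.0 and 30.9 CPM in cKO 1 to 4, against 24.2, 20.1, 27.9 and 26.4 CPM in WT 1 to 4. These groups overlapped (log2 fold change 0.13, interval -0.29 to 0.55, edgeR adjusted p = 0.658), and the intervals of Mcm5 and Mcm6 do not meet. Mcm3 rose to 8.07 ± 1.65 CPM in cKO, against 3.62 ± 0.569 CPM in WT (log2 fold change 1.16, edgeR adjusted p = 0.0124). Mcm2 rose to 21.6 ± 2.24 CPM in cKO, against 12.4 ± 1.98 CPM in WT (log2 fold change 0.80, edgeR adjusted p = 0.0206). The Mcm2 call did not hold without cKO 3, cKO 4, WT 3 or WT 4 (edgeR adjusted p 0.0583, 0.0624, 0.0595 and 0.0678). Mcm4 and Mcm7 did not pass, with log2 fold changes of 0.67 (edgeR adjusted p = 0.0614) and 0.52 (adjusted p = 0.113), although in Mcm4 all cKO libraries, 8.81 to 10.8 CPM, lay above all WT libraries, 5.09 to 7.46 CPM.

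Levels of the MCM subunits were set side by side per kilobase of exon, the same rough scale between genes. Mcm6 made up 26.0% ± 0.897 of the summed Mcm2 to Mcm7 level in cKO and 36.8% ± 5.72 in WT (SD, n = 4 each). Mcm5 made up 14.2% ± 1.07 in cKO and 6.30% ± 0.525 in WT (SD, n = 4 each). Neither share overlapped between genotypes. The share of Mcm6 also falls when other subunits rise, and the CPM of Mcm6 itself overlapped. Mcm6 and Mcm7 were the highest subunits in both genotypes. Mcm5 and Mcm3 were the lowest pair in WT, at 0.905 and 0.965 CPM per kilobase, and in cKO Mcm5 stood at 3.14 CPM per kilobase, below Mcm6 and Mcm7 only. The promoters of Mcm5 and Mcm6 are shown because these subunits had the largest and the smallest fold change of the ring. Both stretches run from 170 bases before to 20 bases after the start annotated by RefSeq (GRCm38.p6), 5′ to 3′ on the gene's own strand, with capitals for matches to an E2F motif or a CCAAT box on either strand. The Mcm5 stretch is chr8:75109339-75109528 on the plus strand and the Mcm6 stretch is chr1:128359686-128359875 on the minus strand. In GENCODE M21, the annotation used for positions and exon lengths, the genes start downstream of these stretches, at 75109569 for Mcm5 and 128359664 for Mcm6.
Mcm5: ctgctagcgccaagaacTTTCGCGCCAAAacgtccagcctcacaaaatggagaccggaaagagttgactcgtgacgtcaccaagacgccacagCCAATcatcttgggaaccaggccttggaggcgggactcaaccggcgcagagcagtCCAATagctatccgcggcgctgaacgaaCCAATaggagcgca
Mcm6: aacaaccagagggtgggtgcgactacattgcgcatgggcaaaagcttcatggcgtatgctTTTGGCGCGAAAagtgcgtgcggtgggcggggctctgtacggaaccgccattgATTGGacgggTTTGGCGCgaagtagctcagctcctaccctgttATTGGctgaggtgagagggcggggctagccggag
Both stretches hold E2F motif matches and CCAAT boxes, so the presence of these letters did not separate the subunit that rose from the one that did not pass.

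**Figure D2:**
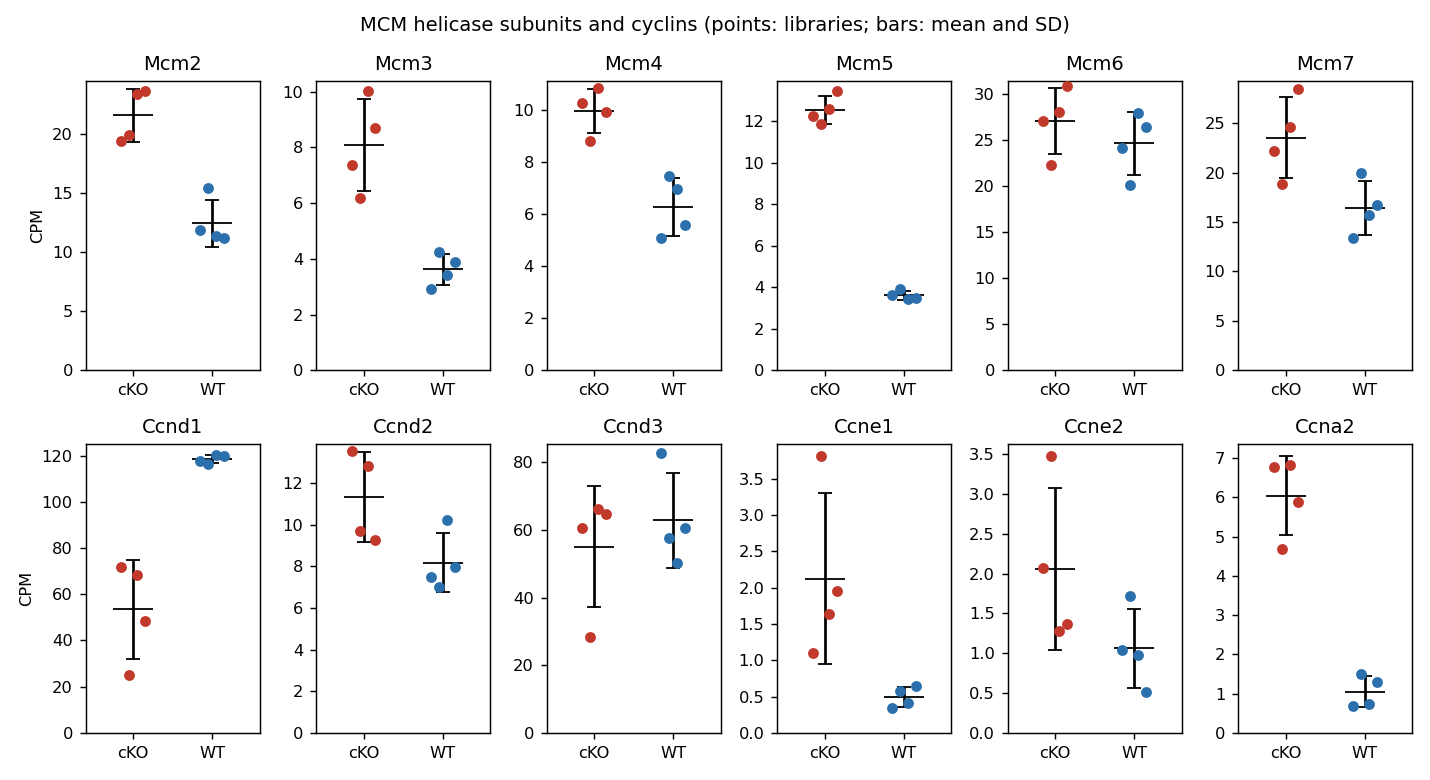
CPM of the 6 MCM subunits (upper row) and of the D-, E- and A-type cyclins (lower row), with the 4 cKO libraries in red at the left of each panel and the 4 WT libraries in blue at the right. Horizontal bars are means and vertical bars SD; every axis starts at 0. Mcm5 separates by 11.9 to 13.4 CPM in cKO against 3.43 to 3.90 CPM in WT, Mcm6 overlaps, and Ccnd1 is lower in all cKO libraries.

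Pcna encodes the sliding clamp that holds DNA polymerase on the template, and it was among the most abundant of the 39 genes. It had 62.9, 88.9, 60.3 and 62.8 CPM in cKO 1 to 4, against 50.3, 56.9, 37.0 and 35.3 CPM in WT 1 to 4. The groups did not overlap, cKO 2 stood apart from the other cKO libraries, and the log2 fold change of 0.61 did not pass (interval 0.12 to 1.11, edgeR adjusted p = 0.0838). Pcna and Tyms were the only genes of the 39 with fractional expected counts, which arise when reads are shared with another gene.

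Ribonucleotide reductase, the enzyme that makes deoxyribonucleotides, has a large subunit encoded by Rrm1 and a small subunit of dividing cells encoded by Rrm2. Rrm2 had 15.9, 18.7, 16.3 and 14.8 CPM in cKO 1 to 4, against 5.18, 2.76, 2.78 and 3.69 CPM in WT 1 to 4. All cKO libraries lay far above all WT libraries (log2 fold change 2.18 ± 0.26 SE, edgeR adjusted p = 0.000430). Rrm1 had 24.4, 23.9, 17.5 and 18.4 CPM in cKO 1 to 4, against 14.9, 12.4, 10.6 and 11.6 CPM in WT 1 to 4. Its groups did not overlap either, but the change was smaller (log2 fold change 0.77 ± 0.21 SE, edgeR adjusted p = 0.0302; the intervals of Rrm1 and Rrm2, 0.30 to 1.23 and 1.62 to 2.75, do not meet). The Rrm1 call held when cKO 3 or WT 1 was left out and did not hold when any of the other 6 libraries was left out (edgeR adjusted p 0.0530 to 0.0931). Tk1, the thymidine kinase of S phase, was 11.8 to 15.4 CPM in cKO and 4.40 to 12.2 CPM in WT. WT 2, with 12.2 CPM, was the library that overlapped, and Tk1 passed without it (log2 fold change 1.14, edgeR adjusted p = 0.0172), against 0.82 and an adjusted p of 0.0778 with all libraries. Tyms, encoding thymidylate synthase, was 19.8 to 24.8 CPM in cKO and 9.63 to 26.3 CPM in WT, where WT 1 was higher than every cKO library (log2 fold change 0.41, interval -0.25 to 1.06).

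The G2 and mitotic entry genes rose in 8 of 8 cases, by log2 fold changes of 1.84 for Foxm1 to 3.13 for Cdk1, and their summed level was 39.4 to 48.6 CPM in cKO libraries and 5.82 to 7.76 CPM in WT libraries. Cdk1 encodes the kinase that triggers mitosis. It had 9.89, 14.7, 9.60 and 13.8 CPM in cKO 1 to 4, against 1.64, 1.49, 1.39 and 0.970 CPM in WT 1 to 4. The lowest cKO library was several times the highest WT library, and Cdk1 had the largest log2 fold change and the smallest adjusted p of the 39 genes (3.13 ± 0.29 SE, edgeR adjusted p = 8.88e-05). It rested on 644 counts in the cKO libraries together and 64 in the WT libraries together.

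The cyclins that activate CDK1 rose with it. Ccna2, encoding cyclin A2 of S phase and G2, had 6.77, 4.68, 6.83 and 5.87 CPM in cKO 1 to 4, against 0.690, 1.49, 0.735 and 1.29 CPM in WT 1 to 4 (log2 fold change 2.52 ± 0.34 SE, edgeR adjusted p = 0.000883). Ccnb1, encoding cyclin B1, had 6.10, 7.18, 4.62 and 6.46 CPM in cKO 1 to 4, against 0.776, 1.49, 0.816 and 0.0647 CPM in WT 1 to 4 (log2 fold change 3.01 ± 0.55 SE, edgeR adjusted p = 0.00453). Neither cyclin overlapped between genotypes, and WT 4 held 1 count of Ccnb1. Ccnb2, encoding cyclin B2, had 5.13, 5.22, 6.40 and 6.72 CPM in cKO 1 to 4, against 1.21, 0, 1.14 and 0.841 CPM in WT 1 to 4 (log2 fold change 2.82 ± 0.54 SE, edgeR adjusted p = 0.00602). Here WT 2 held no count, and the other 3 WT libraries held 13 or 14 counts each.

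The promoters of Cdk1, Ccnb2 and Cdc20 are shown as examples of genes of this late wave, 170 bases before to 20 bases after the RefSeq start (GRCm38.p6), 5′ to 3′ on the gene's strand. Capitals mark the cell cycle genes homology region TTTGAA (CHR), the CCAAT box and, in Cdk1, an E2F motif, each on either strand. The Cdk1 stretch is chr10:69352893-69353082, the Ccnb2 stretch is chr9:70421535-70421724 and the Cdc20 stretch is chr4:118437324-118437513, all on the minus strand.
Cdk1: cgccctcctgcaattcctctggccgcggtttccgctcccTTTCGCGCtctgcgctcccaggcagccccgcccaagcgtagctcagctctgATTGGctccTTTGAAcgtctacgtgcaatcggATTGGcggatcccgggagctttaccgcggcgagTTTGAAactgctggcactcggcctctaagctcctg
Ccnb2: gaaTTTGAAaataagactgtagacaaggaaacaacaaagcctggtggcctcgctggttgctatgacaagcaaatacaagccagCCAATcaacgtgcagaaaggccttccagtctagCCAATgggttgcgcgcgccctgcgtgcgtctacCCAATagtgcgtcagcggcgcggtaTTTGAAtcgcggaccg
Cdc20: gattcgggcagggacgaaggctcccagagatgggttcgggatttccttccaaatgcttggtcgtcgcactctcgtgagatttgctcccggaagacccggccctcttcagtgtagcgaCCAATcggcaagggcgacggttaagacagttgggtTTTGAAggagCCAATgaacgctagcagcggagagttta
Each of the 3 holds a TTTGAA close to the start, at position -15 in Cdk1, 5 in Ccnb2 and -18 in Cdc20, counting the start as 1 and the base before it as -1. CCAAT boxes lie upstream of it in Cdk1 and Ccnb2, and in Cdc20 a box lies on either side of it, at -53 and -8. These 3 do not stand for all G2 and mitotic genes. No TTTGAA was found in the longer promoter windows, described below, of Ccnb1, Gtse1, Birc5, Bub1 and Cenpe. Promoters of Ccna2, Foxm1 and Aurkb were not found and could not be searched.

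Among the regulators of mitotic entry, Aurka, the Aurora A kinase of the centrosome, had 3.59 to 5.29 CPM in cKO and 0.572 to 1.47 CPM in WT, without overlap (log2 fold change 2.38, edgeR adjusted p = 0.00220). Plk1, the polo-like kinase that activates CDK1, had 3.23, 1.31, 3.27 and 2.28 CPM in cKO 1 to 4, against 0.518, 0.230, 0.572 and 0.582 CPM in WT 1 to 4. The groups stood apart, with cKO 2 the lowest of its group (log2 fold change 2.36, edgeR adjusted p = 0.00507). Foxm1, the transcription factor of the G2 programme, had 3.60, 0.979, 4.05 and 4.44 CPM in cKO 1 to 4, against 0.949, 0.689, 1.22 and 0.776 CPM in WT 1 to 4. In Foxm1 cKO 2 lay inside the WT range, so the groups overlapped although the gene passed (log2 fold change 1.84, edgeR adjusted p = 0.0208), and the call did not hold without cKO 3, cKO 4 or WT 4 (adjusted p 0.0540, 0.0723 and 0.0650). Gtse1, a G2 and S phase gene that restrains p53, had 1.74 to 3.72 CPM in cKO and 0 to 0.735 CPM in WT, with WT 2 at 0 (log2 fold change 2.60, edgeR adjusted p = 0.0125).

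Of the chromosome and spindle genes, 7 of 9 were higher in cKO. Mki67, the proliferation marker Ki-67 that coats mitotic chromosomes, had 8.85, 7.62, 7.68 and 9.01 CPM in cKO 1 to 4, against 1.04, 1.95, 3.02 and 2.00 CPM in WT 1 to 4 (log2 fold change 2.04 ± 0.32 SE, edgeR adjusted p = 0.00206). Top2a, the topoisomerase that untangles sister chromatids, had 10.4, 6.31, 9.39 and 8.29 CPM in cKO 1 to 4, against 1.29, 0, 3.02 and 1.62 CPM in WT 1 to 4 (log2 fold change 2.49 ± 0.61 SE, edgeR adjusted p = 0.0178). Both genes separated the genotypes without overlap, and the Top2a call did not hold without cKO 4 (edgeR adjusted p = 0.0515).

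Aurkb and Birc5 encode Aurora B and survivin, partners in the chromosomal passenger complex that corrects kinetochore attachments. Birc5 had 6.35, 5.77, 5.69 and 6.66 CPM in cKO 1 to 4, against 0.949, 1.26, 1.22 and 0.647 CPM in WT 1 to 4, and Aurkb had 2.50 to 3.72 CPM in cKO and 0.408 to 0.776 CPM in WT. Neither overlapped between genotypes, and their log2 fold changes were close, 2.59 for Birc5 (edgeR adjusted p = 0.000495) and 2.47 for Aurkb (adjusted p = 0.00136).

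The spindle checkpoint kinases Bub1 and BubR1 are encoded by Bub1 and Bub1b. Bub1 had 1.65, 1.74, 1.56 and 0.914 CPM in cKO 1 to 4, against 0.173, 0, 0.245 and 0.323 CPM in WT 1 to 4, on 79 and 10 counts in all (log2 fold change 2.80, edgeR adjusted p = 0.00774). Bub1b had 2.69, 1.52, 2.42 and 3.07 CPM in cKO 1 to 4, against 0.690, 1.84, 0.653 and 1.10 CPM in WT 1 to 4. In Bub1b WT 2 reached above cKO 2, the gene did not pass (log2 fold change 1.21, edgeR adjusted p = 0.0685), and it passed without WT 2 (1.55, adjusted p = 0.0303). Kif11, the kinesin that pushes spindle poles apart, was 2.07 to 3.56 CPM in cKO and 0.459 to 1.62 CPM in WT (log2 fold change 1.62, edgeR adjusted p = 0.0270). That call did not hold without cKO 1, cKO 3, cKO 4, WT 2 or WT 3 (adjusted p 0.0515 to 0.0785).

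Cenpa and Cenpe act at the centromere. Cenpa, the histone H3 variant that marks centromeres, had 4.21, 10.01, 5.69 and 5.55 CPM in cKO 1 to 4, against 2.16, 3.33, 1.06 and 1.68 CPM in WT 1 to 4. Every cKO library was above every WT library, and replicate 2 was the highest of both groups (log2 fold change 1.64 ± 0.40 SE, edgeR adjusted p = 0.0178; adjusted p = 0.0540 without WT 4). Cenpe, the kinesin that carries chromosomes to the spindle equator, had 2.50, 2.72, 1.85 and 1.76 CPM in cKO 1 to 4, against 0.173, 4.82, 1.63 and 3.56 CPM in WT 1 to 4. The cKO libraries lay close together while the WT libraries ranged widely, with WT 1 the lowest and WT 2 the highest, and Cenpe held 119 counts in each genotype (log2 fold change -0.20, interval -1.58 to 1.18). Its sign turned when WT 2 or WT 4 was left out (0.26 and 0.05).

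The mitotic exit genes act together on the anaphase-promoting complex, Cdc20 as its activator and Ube2c as its ubiquitin-conjugating enzyme. Cdc20 had 7.08, 6.96, 7.82 and 6.66 CPM in cKO 1 to 4, against 1.47, 1.38, 1.80 and 1.49 CPM in WT 1 to 4. Both groups were tight and far apart (log2 fold change 2.21 ± 0.26 SE, edgeR adjusted p = 0.000407). Ube2c had 5.37, 4.79, 5.19 and 6.92 CPM in cKO 1 to 4, against 2.16, 0.115, 0.653 and 0.841 CPM in WT 1 to 4. The WT values of Ube2c were spread, and the lowest, in WT 2, rested on 1 count (log2 fold change 2.53 ± 0.53 SE, edgeR adjusted p = 0.00936). The 15 other subunits and regulators of the complex, taken from a list of related genes, showed no call in either direction, with a median log2 fold change of 0.16 over the list.

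**Figure D3:**
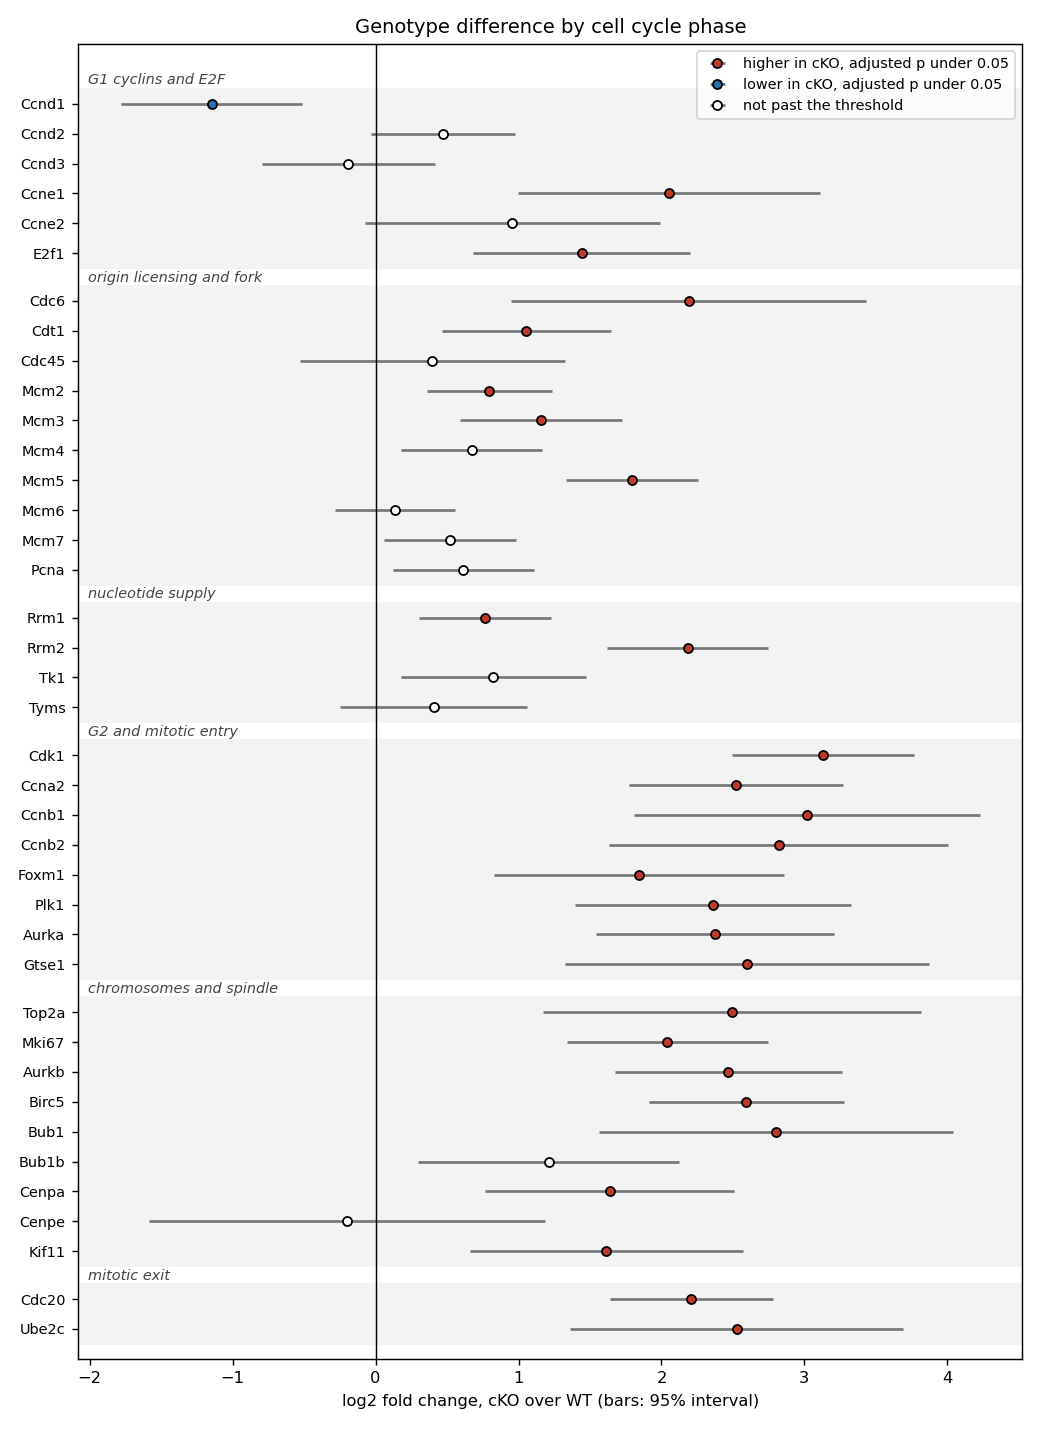
Log2 fold change, cKO over WT, of each of the 39 genes by phase, with bars for the 95% interval from the edgeR fit; red points passed the threshold as higher in cKO, blue as lower, and open points did not pass. Apart from Bub1b and Cenpe, the G2, mitotic and exit genes lie between 1.62 for Kif11 and 3.13 for Cdk1, and the G1 and S phase genes range from -1.15 for Ccnd1 to 2.19 for Cdc6.

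Ranks by level per kilobase of exon are rough, because the length joins all annotated exons of a gene. Pcna (28.6 CPM per kilobase in cKO, 18.7 in WT), Ccnd1 (11.4 in cKO, 25.2 in WT) and Ccnd3 (6.27 in cKO, 7.16 in WT) were the highest 3 of the 39 genes in both genotypes. Pcna was first in cKO and second in WT, and Ccnd1 was second in cKO and first in WT. Rrm2 ranked 4 in cKO, at 5.93 CPM per kilobase, and 10 in WT, at 1.30. Ccnb2 ranked 7 in cKO, at 3.83 CPM per kilobase, and 18 in WT, at 0.521, while Cdk1 ranked 15 in cKO, at 2.43, and 26 in WT, at 0.278. Cdc6, Cenpe and Bub1 held the last 3 ranks in cKO, at 0.250 to 0.337 CPM per kilobase. The 26 genes that were higher rested on 71 to 1190 counts in the cKO libraries together and on 10 to 590 counts in the WT libraries together, so the WT levels of the mitotic genes carry the larger counting error.

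The wider cell cycle machinery was read from 9 lists holding 166 other genes, of which 151 could be tested, 45 were higher and 4 were lower in cKO. The shares over all tested genes were 9.57% higher and 7.14% lower. These lists were chosen with earlier results of these data known. Kinetochore and checkpoint genes were higher in 12 of 21 tested cases and spindle and cytokinesis genes in 17 of 25, with medians of 1.33 and 1.83 as log2 fold changes. Knstrn, a small kinetochore-associated protein, had 5.43 to 9.36 CPM in cKO and 0.572 to 0.949 CPM in WT (log2 fold change 3.06, edgeR adjusted p = 0.000309). Prc1, which bundles the microtubules of the central spindle, had 2.72 to 5.16 CPM in cKO and 0.604 to 0.816 CPM in WT (log2 fold change 2.54, edgeR adjusted p = 0.000883). Both groups of values stood apart. Condensin and cohesin genes were higher in 5 of 17 cases, led by Ncaph, a condensin subunit (log2 fold change 2.57, edgeR adjusted p = 0.00547), and the list median was -0.05.

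Of 38 tested replication genes outside the 39, 7 were higher, where 9.57% of all tested genes were called higher. Uhrf1, which recruits the maintenance DNA methyltransferase to replicated DNA, had 7.07 to 9.32 CPM in cKO and 0.604 to 1.88 CPM in WT (log2 fold change 2.78, edgeR adjusted p = 0.000527), and Lig1, the ligase of the lagging strand, had 9.70 to 13.1 CPM in cKO and 3.04 to 4.94 CPM in WT (log2 fold change 1.61, adjusted p = 0.00167). The regulators of CDK1 were higher in 3 of 8 cases. These were Cks1b, a small subunit that binds CDK1, Pkmyt1, a kinase that inhibits it, and Mastl, the Greatwall kinase that protects its phosphorylation marks. With a sex term the Pkmyt1 and Mastl calls did not hold (edgeR adjusted p 0.0510 and 0.0738), nor did they without WT 4 and cKO 4 (0.129 and 0.109). Mastl also lost its call without WT 4 alone (edgeR adjusted p = 0.0513), while Cks1b was called in each of these fits.

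No kinase or partner of G1 (Cdk2, Cdk4, Cdk6 and the CDK-activating kinase genes Cdk7, Ccnh and Mnat1) passed in either direction among 6 tested with edgeR, and the median log2 fold change was 0.25. In 3 of the 6, Cdk2, Cdk4 and Mnat1, every cKO library still lay above every WT library, a pattern held by 13.0% of all tested genes. Cdk4 came nearest to the threshold (log2 fold change 0.77, interval 0.23 to 1.31, edgeR adjusted p = 0.0529). Of the retinoblastoma, E2F and MuvB genes 1 of 15 was called, Rbl2, which encodes the p130 protein of resting cells. Rbl2 had 39.1, 23.9, 26.2 and 20.3 CPM in cKO 1 to 4, against 42.1, 52.8, 72.2 and 71.9 CPM in WT 1 to 4 (log2 fold change -1.13, edgeR adjusted p = 0.0141). All cKO libraries were below all WT libraries. The call did not hold with a sex term (log2 fold change -0.96, edgeR adjusted p = 0.107), without cKO 4 (adjusted p = 0.0524), without the 2.5-month pair (0.0545) or without WT 4 and cKO 4 (0.118). Of 6 tested CDK inhibitors only Cdkn1a, encoding p21, passed. It had 29.2, 44.7, 47.4 and 82.1 CPM in cKO 1 to 4, against 7.16, 7.92, 2.53 and 2.20 CPM in WT 1 to 4 (log2 fold change 3.38, edgeR adjusted p = 0.000952). This inhibitor of the cycle was thus high in the same 4 libraries as the mitotic genes. Cdkn2c (18.1 to 22.4 CPM in cKO, 11.5 to 17.6 in WT), Cdkn2d (10.2 to 13.6 in cKO, 4.57 to 9.87 in WT) and Cdkn2b (3.17 to 8.59 in cKO, 0.711 to 5.51 in WT) did not pass. Cdkn1b was 18.4 to 42.2 CPM in cKO and 26.7 to 32.6 CPM in WT, Cdkn1c was 10.6 to 18.2 CPM in cKO and 8.16 to 23.3 CPM in WT, and Cdkn2a was too low to test, at 0.109 to 0.498 CPM in cKO and 0 to 0.0647 CPM in WT.

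The spindle genes Kif20b and Spag5 were called lower while 17 genes of their list were higher, and in each of them the groups overlapped. Kif20b, a kinesin of cytokinesis, had 2.56, 2.83, 2.70 and 2.15 CPM in cKO 1 to 4, against 1.98, 25.7, 57.6 and 24.1 CPM in WT 1 to 4. The high values were in WT 2, WT 3 and WT 4, which carry Y-linked reads, while WT 1, without them, was as low as the cKO libraries, and so was cKO 3, which has them. The Kif20b log2 fold change was -3.42 (edgeR adjusted p = 0.0155), and the call did not hold with a sex term (-1.81, adjusted p = 0.331), without cKO 4 (-3.34, adjusted p = 0.0542), with no count filter (adjusted p = 0.0557) or in limma-voom (-2.68, adjusted p = 0.148). It was also lost without the 2.5-month pair and without WT 4 and cKO 4 (edgeR adjusted p 0.0799 and 0.123). Within libraries with Y-linked reads Kif20b was at -3.72, and within those without them its sign turned, at 0.33, as log2 fold changes (edgeR adjusted p 0.0119 and 0.916). Spag5, a microtubule-binding protein of the spindle, was 1.20 to 3.05 CPM in cKO and 2.26 to 10.4 CPM in WT (log2 fold change -1.60, edgeR adjusted p = 0.0320). Its call held without cKO 1 or WT 4 and with none of the other 6 libraries left out (adjusted p 0.0502 to 0.0845). The Spag5 call was also lost with a sex term (edgeR adjusted p = 0.0700), with scaling to library totals (0.0508), with a term for the run of header numbers (0.0524), without the 2.5-month pair (0.140) and in limma-voom (0.0932).

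**Figure D4:**
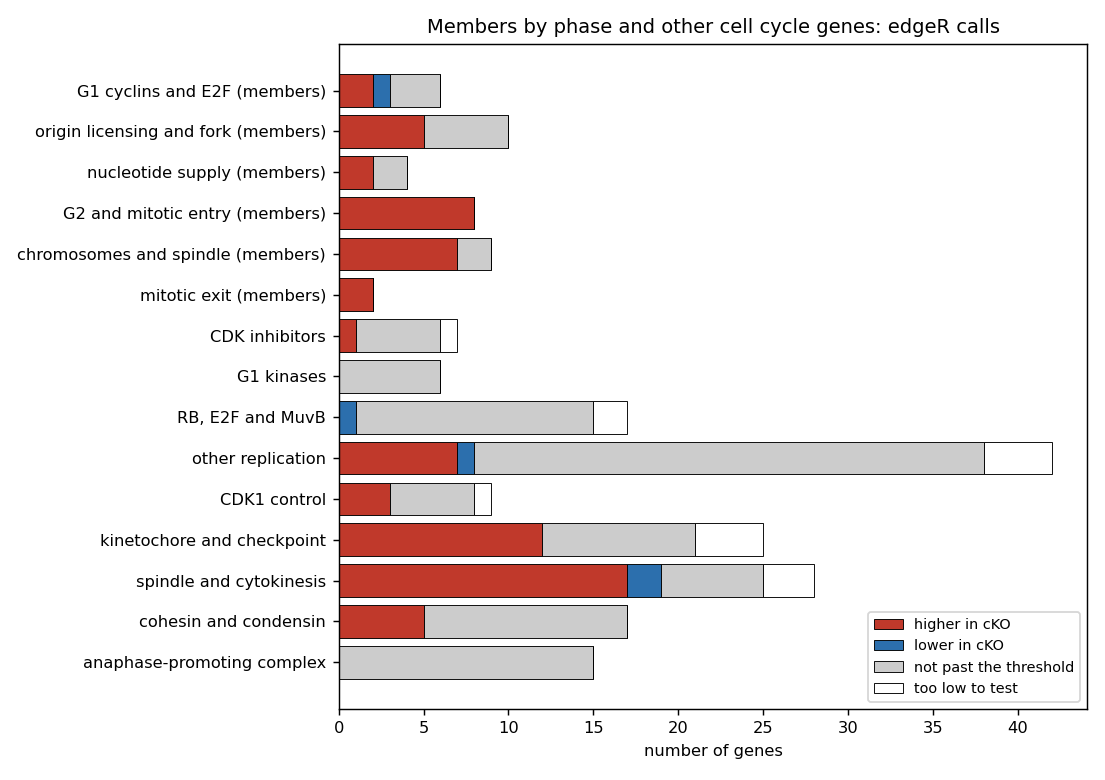
Number of genes in each phase of the 39 (upper 6 bars) and in each list of other cell cycle genes (lower 9 bars) that were higher in cKO (red), lower in cKO (blue), not past the threshold (grey) or too low to test (white). All 8 G2 and mitotic entry genes are red, and none of the 15 genes of the anaphase-promoting complex list is coloured.

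Promoters of 32 of the 39 genes, 35 in all because some genes have more than 1 start, were found among 32851 mouse promoters (RefSeq, GRCm38.p6, 250 bases before to 50 after the start). Some of these windows, as in E2f1 and Cdc6, lie wholly within the gene as GENCODE M21 places it. The E2f1 window is chr2:154569377-154569676 on the minus strand, and the GENCODE gene reaches 154569892. Such windows need not describe the promoter upstream of the GENCODE start. A CCAAT box on either strand was present in 27 of 35 (77.1%), against 37.4% of all promoters. TTTGAA on either strand was present in 13 of 35 (37.1%), against 17.9% of all promoters, and all 13 also held a CCAAT box, a combination held by 6.95% of all promoters. An E2F motif (TTTCCCGC, TTTCGCGC, TTTGCCGC or TTTGGCGC, either strand) was present in 7 of 35 (20%), against 2.26% of all promoters. Matches of different motifs shared no base in the members' promoters, except 1 base between an E2F motif and a CCAAT box in Mcm7, and E2F matches on opposite strands could share bases. Within 100 bases before and 50 bases after the start, TTTGAA was held by 37.1% of the members' promoters and 8.01% of all promoters. The E2F matches lay mainly in replication genes, Cdc6, Cdt1, Mcm3, Mcm5, Mcm6 and Mcm7, with Cdk1 as the exception. The TTTGAA matches lay mainly in G2 and mitotic genes, with Mcm2 and Cdc45 as the exceptions. Counted by gene, TTTGAA was found in 11 of 23 genes that were higher and 2 of 9 that were not called, and E2F in 5 of 23 and 2 of 9. A match of letters is a description of the sequence and not evidence that a factor binds there.

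**Figure D5:**
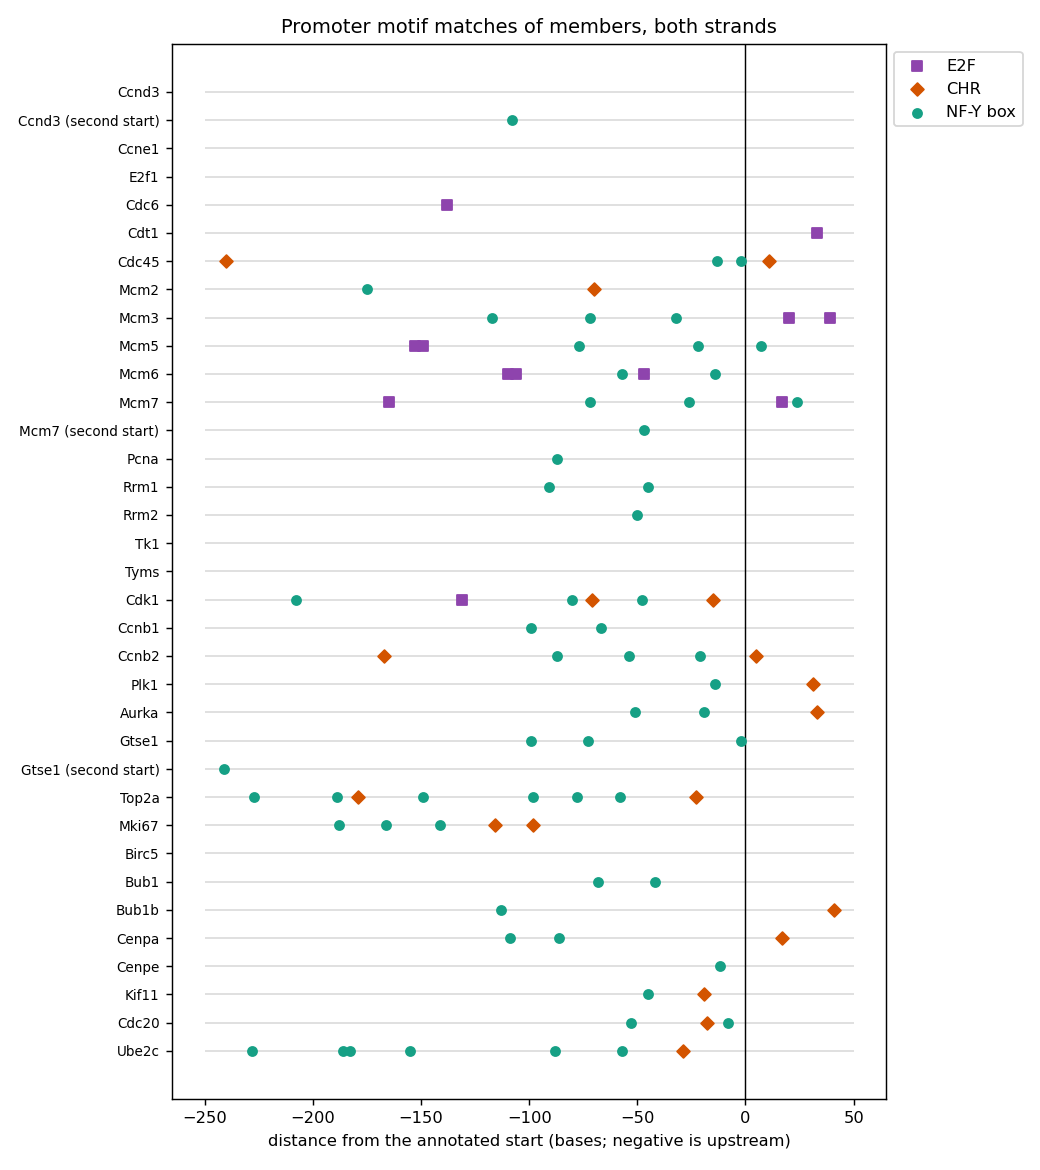
Position of motif matches in the 35 promoters of 32 members, in bases from the annotated start, with purple squares for the E2F motif, orange diamonds for the cell cycle genes homology region (CHR, TTTGAA) and green circles for the CCAAT box, drawn as the NF-Y box after the factor known to bind it. Members run from G1 at the top to mitotic exit at the bottom, and orange diamonds gather near the start in the lower rows.

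The calls were read against sex, because 3 of 4 cKO libraries and 1 of 4 WT libraries lacked Y-linked reads. With a sex term in the edgeR fit 19 of the 39 genes were higher and 0 were lower, where 5.17% of all tested genes were called higher; Ccne1, E2f1, Cdt1, Mcm2, Rrm1, Foxm1 and Cenpa lost their call, with log2 fold changes of 0.59 to 2.03 and adjusted p of 0.0530 to 0.189, as did Ccnd1. Among libraries with Y-linked reads, 1 cKO against 3 WT, the median log2 fold change of the 39 genes was 1.59, and among libraries without them, 3 cKO against 1 WT, it was 1.67. The medians of all tested genes in these contrasts were -0.04 and 0.07. Of the 39 genes 36 had the same sign in both contrasts. The difference between the contrasts passed in 0 of the 39 genes (edgeR interaction, smallest adjusted p 0.671, 1 gene at an unadjusted p under 0.05), and that gene was Cenpe. Each contrast rests on a single library on 1 side.

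Libraries of replicate 4 carry later sample numbers in their headers than the others, in both genotypes. Without that pair 12 of the 39 genes were higher and 0 were lower, where 3.01% of all tested genes were called higher. With all libraries and a term for the run of header numbers, 26 were higher and 1 was lower, and 1988 genes were called in all. Without cKO 4 alone 18 were higher, against 22 to 26 without any other single library apart from WT 4, without which 20 were. A set of 12 genes passed under every alternative scaling, filter, tool, covariate and omission of a library that gave them a value, leaving aside stricter thresholds and the contrasts within 1 sex. These were Mcm5, Rrm2, Cdk1, Ccna2, Ccnb1, Plk1, Aurka, Mki67, Aurkb, Birc5, Bub1 and Cdc20, with Bub1 too low to be tested under a filter of 1 CPM in 4 libraries. Scaling to library totals in place of the trimmed mean shifted the median log2 fold change of all genes by 0.16 and split all calls into 1866 higher and 550 lower, against 1323 higher and 987 lower, and it gave 30 higher and 0 lower among the 39.

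Markers of other cell types moved with genotype in the same libraries. Summed macrophage markers were 469 to 804 CPM in cKO and 121 to 239 CPM in WT, with 10 of 12 higher and none of the 12 at 0 in WT. The other 2 were not called, and 11 of the 12 log2 fold changes were positive. Lyz2 alone supplied 219 to 532 CPM of the sum in cKO and 19.4 to 77.5 CPM in WT. Summed fibroblast markers were 447 to 704 CPM in cKO and 122 to 208 CPM in WT, with 7 of 8 higher and 1 lower. Injured tubule markers were higher in 7 of 7 cases (10867 to 25100 CPM in cKO, 460 to 1967 CPM in WT), and proximal tubule markers were lower in 4 of 10 (2532 to 8439 CPM in cKO, 10155 to 12293 CPM in WT). T and NK cell markers summed to 9.27 to 19.8 CPM in cKO and 5.30 to 11.6 CPM in WT, and 1 of 5 tested was higher. Neutrophil markers summed to at most 1.99 CPM in any library, with Mpo and Camp at 0 in all 8. B and plasma cell markers overlapped (3.98 to 37.4 CPM in cKO, 5.51 to 41.5 CPM in WT). Erythroid markers were lower in 4 of 4 tested cases, with sums of 3.13 to 28.2 CPM in cKO and 29.4 to 584 CPM in WT. Summed collecting duct markers were 1198 to 2680 CPM in cKO and 431 to 749 CPM in WT, with 4 of 7 higher and 1 lower. Endothelial markers summed to 194 to 329 CPM in cKO and 304 to 440 CPM in WT, with 3 of 8 lower. Loop and distal tubule markers summed to 2008 to 3045 CPM in cKO and 3449 to 6346 CPM in WT, with 2 of 6 lower. Podocyte markers summed to 103 to 261 CPM in cKO and 173 to 333 CPM in WT, and none of the 5 was called. The part of these cell types in the higher cell cycle transcripts was not tested.

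Annotated genes overlap some members. Among members that were higher, Cdt1, Ccna2, Foxm1, Cdc20 and Ube2c each overlap another protein-coding gene. Cdt1 shares its strand with Gm20388, and Foxm1 shares its strand with Tex52 and Gm44596, which held 1 and 0 counts over all libraries. Ccnd1, Ccnd3, Ccne2, Cdc45, Mcm7 and Tk1 overlap a protein-coding gene on the opposite strand. The kit marks strand, but the strand setting of the counting is not given in the sources used here, so reads of these genes and their partners may be mixed. The expected counts of these overlapping members were whole numbers in every library, and mixing of reads was not tested.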

How the data were processed

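RNA of 8 whole kidneys, 4 cKO and 4 WT, was sequenced from stranded libraries of polyadenylated RNA, per the labels' protocols. The authors deposited expected counts per Ensembl gene, with no scaling by depth, and the submitters' processing notes name STAR, RSEM and the build mm10. The sources used here give no tool versions, annotation or strandedness of counting. Of 47643 identifiers, 47224 were matched to symbols, positions and exon lengths in GENCODE M21 of that build.

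Expected counts were rounded to whole numbers, filtered with filterByExpr and TMM-scaled. Genotypes were compared with the two-sided edgeR quasi-likelihood test, and p-values were adjusted by Benjamini-Hochberg over 13829 genes at 0.05. SD values are over 4 libraries, and intervals are 95% intervals of a single gene. A library was called Y-bearing at 10 or more counts over 4 Y-linked genes. The members and the lists were chosen with earlier results of these data known. All 39 members could be named. Genes of the other lists were named when called, by smallest adjusted p and at most 4 a list and direction, with every CDK inhibitor, and markers by level. The values of 1 gene of these lists are not reported here. Counting error and depth limit the low WT values. Steps were tested on simulated data. Tools were edgeR 4.0.16, DESeq2 1.42.0 and limma 3.58.1 in R 4.3.3, and pandas 2.3.3, numpy 2.4.6 and matplotlib 3.10.9 in Python 3.11.15. The alternatives were other scalings, filters, tools, thresholds and covariates, a replicate block, and leaving out libraries.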

Additional observations from a re-analysis of the deposited data

Results flagged for a closer look

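In each gene and genotype the highest and the lowest of the 4 libraries were set against the others, and 3 of 78 such groups had 1 library standing apart, where chance gives about 1 in 20. Ccnd3 was 28.4 CPM in cKO 2, against 60.7 to 66.4 CPM in the other cKO libraries. Pcna was 88.9 CPM in cKO 2, against 60.3 to 62.9 CPM in the other cKO libraries. Mcm2 was 15.4 CPM in WT 2, against 11.2 to 11.8 CPM in the other WT libraries. All 3 cases were 2.5-month kidneys, and cKO 2 and WT 2 were also the libraries with the lowest totals. The part of age and depth in them was not tested.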

How the results depend on the processing

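Over all tested genes, 2310 calls became 941 with a sex term, 1397 without the 2.5-month pair, 568 without WT 4 and cKO 4, 480 within libraries with Y-linked reads, 120 within those without, 798 at an adjusted p under 0.01, and 1155 to 3093 with 1 library left out. Among the 39 genes, 26 higher became 12 without WT 4 and cKO 4, 9 and 2 within libraries with and without Y-linked reads, and 14 at an adjusted p under 0.01. They stayed at 18 to 30 under the other alternatives, with 18 to 26 for single omissions, 29 for DESeq2 and 27 for limma-voom. The 1 lower gene became 0 with scaling to library totals, a sex term, no WT 4 and cKO 4, either contrast by Y-linked reads or an adjusted p under 0.01, and was 0 to 1 with 1 library left out. Among the 39 genes and Cox10, the sign of a log2 fold change turned only in genes that were not called; of the related genes named, the called Kif20b turned to 0.33 within libraries without Y-linked reads. Cox10 was 0.072 within libraries with Y-linked reads. Ccnd3 was 0.24 there, and -0.29 to 0.024 with 1 library left out. Tyms was -0.32 within libraries without Y-linked reads. Cenpe was 0.82 with a sex term, 0.15 with the replicate block, 0.16 without the 2.5-month pair, 0.10 without WT 4 and cKO 4, 0.46 in limma-voom, 3.67 within libraries without Y-linked reads, and -0.60 to 0.26 with 1 library left out. The cause was not tested. For the promoter motifs, the shorter window gave 11.4% for E2F, 37.1% for TTTGAA and 62.9% for CCAAT.

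Replicate numbers were shared between genotypes, and correlations of same-numbered libraries' residuals were -0.08, 0.28, 0.12 and -0.0022, so the numbers were not taken as pairs. With the replicate block 27 of the 39 genes were higher and 1 was lower, and 2208 genes were called in all. The related genes Kif20b and Spag5 were not called with the block (edgeR adjusted p 0.0718 and 0.0621).

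Low counts limit the mitotic genes in WT, where single libraries held 0 counts. The sex imbalance and the single library on 1 side of each contrast by Y-linked reads limit what those contrasts can show.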
